A study of Homo sapiens with 4 samples.

Results

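Endoglin, noggin and 8 genes of bone morphogenetic protein (BMP) and SMAD signalling were followed in MDA-MB-231Br, a line derived from MDA-MB-231 breast cancer cells. The members are ENG, NOG, BMP2, BMP4, GREM1, SMAD1, SMAD4, SMAD5, SMAD6 and SMAD7, taken by gene symbol from the platform annotation. All 10 had a named probe set, 1 each, and all 10 passed the filter on low signal, out of 14884 named genes and 12755 tested ones. The set was chosen by measured values: ENG and NOG entered it because their means differed between these same arrays, and the others were added as genes of their pathway. The differences of ENG and NOG are therefore given as a description. Their call in the fit over all genes is the value that chose them, so it is reported as such, is no independent test and supports nothing about the other genes.

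There were 4 arrays, 2 of cells transduced with a control hairpin (shControl) and 2 of cells transduced with a hairpin against YTHDF3 (shYTHDF3), a cytoplasmic protein that binds N6-methyladenosine on RNA. Both groups received lentivirus and puromycin selection and were grown in the same medium with serum, per the labels' protocols. The sample titles name MDA-MB-231 where the cell line field names MDA-MB-231Br. The sources used here do not state how many hairpins were used or their sequence. The labels do not say whether the 2 samples of each group were cultured apart, and the p-values then cover only sample-to-sample spread of a kind that can be technical. No probe set was named YTHDF3, so the knockdown itself was not analysed here.

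BMPs are secreted dimers of the TGF-beta superfamily. They bind paired type I and type II serine/threonine kinase receptors, which phosphorylate SMAD1, SMAD5 and SMAD9, and these enter the nucleus with the shared partner SMAD4. Endoglin is a membrane co-receptor that presents BMP9 (GDF2) and BMP10 to the receptor ALK1 (ACVRL1) and is best known from endothelial cells. Noggin and gremlin 1 bind BMP ligands outside the cell and keep them from their receptors. SMAD6 and SMAD7 are inhibitory SMADs that BMP and TGF-beta signalling themselves induce, and noggin is likewise induced by BMPs in many tissues.

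Promoter sequence is shown for ENG, the member with the largest difference, and for SMAD6 and SMAD7, the inhibitory SMADs. Each sequence is the 250 bases before a RefSeq start site in GRCh38.p14, read 5′ to 3′ on the gene's strand. Capitals mark matches on either strand to 4 motifs: the SMAD box CAGAC, the GC-rich SMAD element GGCGCC, the Sp1 GC box GGGCGG and the SMAD palindrome GTCTAGAC. For SMAD7 the most upstream of its listed start sites is shown.
ENG, chr9:127854659-127854908, minus strand: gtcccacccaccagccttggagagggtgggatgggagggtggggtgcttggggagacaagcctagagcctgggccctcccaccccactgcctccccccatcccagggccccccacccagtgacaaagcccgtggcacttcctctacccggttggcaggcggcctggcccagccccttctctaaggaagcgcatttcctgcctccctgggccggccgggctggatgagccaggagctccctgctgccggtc
SMAD6, chr15:66701986-66702235, plus strand: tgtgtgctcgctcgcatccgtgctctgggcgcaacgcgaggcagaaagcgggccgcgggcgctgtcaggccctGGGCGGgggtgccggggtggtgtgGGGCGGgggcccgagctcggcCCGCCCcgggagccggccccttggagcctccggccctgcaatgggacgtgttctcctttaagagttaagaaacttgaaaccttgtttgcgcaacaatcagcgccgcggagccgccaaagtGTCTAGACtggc
SMAD7, chr18:48950966-48951215, minus strand: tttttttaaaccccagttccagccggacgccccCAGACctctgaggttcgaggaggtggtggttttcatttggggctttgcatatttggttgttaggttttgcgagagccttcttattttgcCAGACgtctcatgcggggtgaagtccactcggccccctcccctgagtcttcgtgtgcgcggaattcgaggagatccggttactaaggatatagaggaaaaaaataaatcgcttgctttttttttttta

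The ENG window held no match to any of the 4 motifs, although its GC content was 69.6% against a median of 58.0% over all 35116 windows. The SMAD6 window held 3 GC boxes and 1 palindrome, and the SMAD7 window held 2 SMAD boxes. None of these motifs shares letters with another one in the windows shown. Of all windows of this length, 38.0% held a SMAD box, 16.4% the GC-rich element, 42.6% a GC box and 0.2% the palindrome. Across the 17 windows of the 8 members in the table, 7 held a SMAD box (in BMP4, GREM1, SMAD1 and SMAD7), 5 the GC-rich element, 9 a GC box and 1 the palindrome. NOG and BMP2 had no entry in the table. A match is a description of letters, and binding was not measured.

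ENG rose. Its deposited log2 expression was 7.29 and 7.14 in the shControl arrays and 8.29 and 8.24 in the shYTHDF3 arrays (probe set 17098594). Both knockdown arrays lay above both control arrays, and the gap between the groups, 0.95, was wider than the 0.15 between the controls or the 0.04 between the knockdown arrays. The means were 7.22 ± 0.11 and 8.27 ± 0.03 (SD, n = 2 each), a log2 difference of 1.05 (SE 0.13) or 2.07-fold. Over the 4 pairings of a knockdown and a control array the difference ran from 0.95 to 1.14. In bulk RNA, more expressing cells and more RNA per cell cannot be told apart.

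NOG rose by nearly as much. It stood at 7.50 and 7.52 in the shControl arrays and at 8.49 and 8.43 in the shYTHDF3 arrays (probe set 16836311). The arrays of a group lay within 0.03 and 0.06 of each other, and the groups were separated by 0.91. The means were 7.51 ± 0.02 and 8.46 ± 0.04, a log2 difference of 0.95 (SE 0.13) or 1.93-fold, with single pairs from 0.91 to 0.99.

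Among all tested genes ENG had the 11th and NOG the 12th largest positive difference. These were the 2 members called higher by limma over all genes, out of 10. Over all 12755 genes 11 were called higher, or 0.0862%, and 85 lower, or 0.666%. Since this contrast chose ENG and NOG nothing is read from their share. Leaving out any single array ended both calls while the values moved little. ENG was 1.12 without shControl replicate 1, 0.97 without shControl replicate 2, 1.03 without shYTHDF3 replicate 1 and 1.07 without shYTHDF3 replicate 2. NOG was 0.94, 0.97, 0.92 and 0.98 in the same order. Both calls were also absent when all 37532 probe sets above the filter, unnamed ones included, entered the fit.

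**Figure D1:**
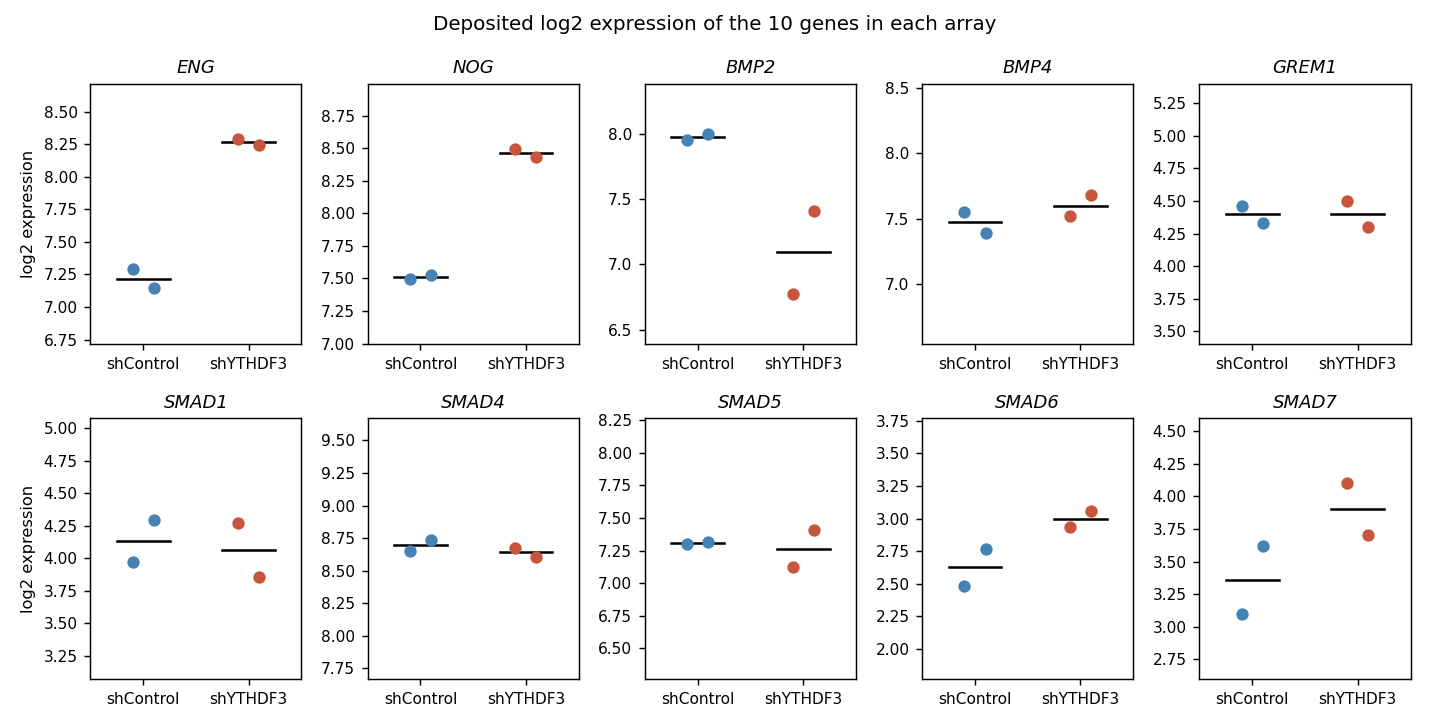
Deposited log2 expression (vertical axis, each panel spanning 2 log2 units) of the 10 genes in the shControl (blue) and shYTHDF3 (red) arrays; points are single arrays and lines are group means. ENG and NOG sit about 1 unit higher in both knockdown arrays, BMP2 is lower with knockdown arrays at 6.77 and 7.41, and the groups overlap for BMP4, GREM1, SMAD1, SMAD4 and SMAD5.

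The profiles of ENG and NOG over the 4 arrays lay close together. Likeness was measured as the Euclidean distance between log2 profiles, each centred on its own mean over the 4 arrays. NOG was the nearest of all tested genes to ENG, at a distance of 0.16, and ENG was the second nearest to NOG. After NOG, the nearest to ENG were TMEM19, a multi-pass membrane protein (0.16), and the long noncoding RNA UCA1 (0.25). The nearest to NOG was RDH11, a retinal reductase (0.14), and after ENG came BRI3BP (0.17). TMEM19, RDH11 and BRI3BP were also called higher, with log2 differences of 1.21, 0.87 and 0.93, and UCA1 at 0.81 was not called. With 4 arrays such a distance reflects mainly the size of the difference between groups, which is what chose ENG and NOG. Their closeness follows largely from that choice. Genes with LOC symbols were passed over when the neighbours were named.

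Of the ligands, BMP2 was lower without passing. BMP2, an osteogenic BMP that signals through SMAD1, SMAD5 and SMAD9, stood at 7.95 and 8.00 in the shControl arrays and at 6.77 and 7.41 in the shYTHDF3 arrays (probe set 16911261). The groups did not overlap, but the knockdown arrays differed by 0.64 from each other against 0.05 between the controls. The log2 difference was -0.88 (SE 0.21, 95% interval -1.37 to -0.39), and limma's adjusted p was 0.13. Leaving out shYTHDF3 replicate 1 gave -0.56, and leaving out shYTHDF3 replicate 2 gave -1.20. With an intensity trend in limma's variance model BMP2 passed, at an adjusted p of 0.035.

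BMP4, a close relative of BMP2 that uses the same receptors, stood at 7.55 and 7.39 in control and at 7.52 and 7.68 in knockdown arrays (probe set 16793129). The groups overlapped, and the log2 difference was 0.13 (95% interval -0.19 to 0.45). A change of the size seen for BMP2 lies outside this interval.

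The second antagonist of the set did not differ detectably. GREM1, gremlin 1, stood at 4.46 and 4.33 in control and at 4.50 and 4.30 in knockdown arrays (probe set 16798951). The group means, 4.40 ± 0.09 and 4.40 ± 0.14, were 0.003 apart (log2; 95% interval -0.32 to 0.33). For the array values this interval excludes a rise as large as that of NOG. GREM1 signal was modest, with 41.5% of tested genes at a lower mean, and this kind of summary compresses weak signals.

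The receptor-regulated SMADs and the shared SMAD overlapped between groups. SMAD4, the partner of all receptor-regulated SMADs, stood at 8.65 and 8.74 in control and at 8.68 and 8.60 in knockdown arrays. Its mean changed by -0.05 (log2; 95% interval -0.35 to 0.25). SMAD5 stood at 7.30 and 7.31 in control and at 7.12 and 7.40 in knockdown arrays, a difference of -0.04 (-0.38 to 0.30). SMAD1 stood at 3.97 and 4.29 in control and at 4.27 and 3.86 in knockdown arrays, a difference of -0.07 (-0.50 to 0.37). Its signal was weak, with 37.1% of tested genes at a lower mean, against 93.4% for SMAD4 and 81.0% for SMAD5. For SMAD1 and SMAD5 the sign depended on which array was left out, with ranges of -0.27 to 0.14 and -0.18 to 0.10.

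The inhibitory SMADs lay higher in both knockdown arrays without passing. SMAD7, which blocks type I receptors and recruits ubiquitin ligases to them, stood at 3.10 and 3.62 in control and at 4.10 and 3.70 in knockdown arrays. The groups did not overlap, but the gap between them, 0.08, was narrower than the 0.52 between the controls and the 0.40 between the knockdown arrays. The log2 difference was 0.55 (SE 0.21, 95% interval 0.05 to 1.04) and limma's adjusted p was 0.30. The difference ran from 0.28 to 0.81 with 1 array left out. SMAD7 signal was low, with 28.9% of tested genes at a lower mean.

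SMAD6, which acts mainly on BMP signalling, stood at 2.48 and 2.77 in control and at 2.93 and 3.05 in knockdown arrays. Its gap between groups was 0.16, against 0.29 between the controls. The log2 difference was 0.37 (SE 0.15, 95% interval 0.02 to 0.72) and limma's adjusted p was 0.32. It was 0.22 when shControl replicate 1 was left out and 0.51 when shControl replicate 2 was. All 4 SMAD6 values lay below the array medians of 3.20 to 3.22 and its control mean of 2.63 was close to the filter value of 2.54, a range where this kind of summary compresses differences.

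**Figure D2:**
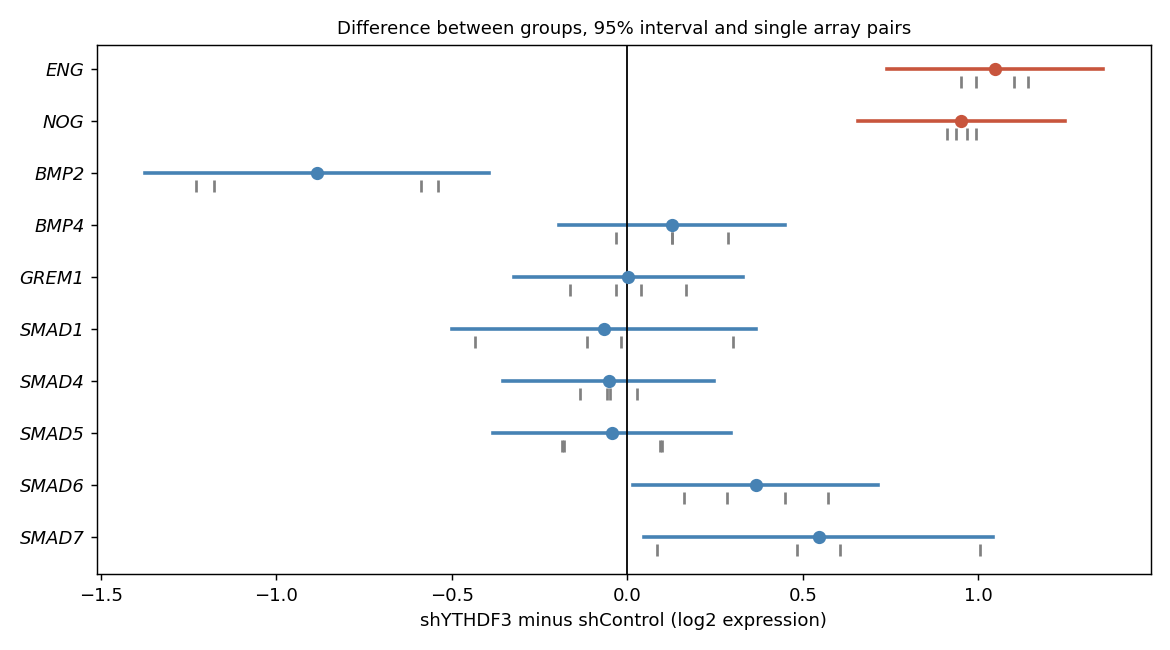
Difference between the shYTHDF3 and shControl means on the log2 scale (horizontal axis) for each of the 10 genes, with limma's 95% interval as the bar and the 4 single array pairs as grey ticks; red marks the genes called over all genes. ENG and NOG lie near 1, BMP2 at -0.88, SMAD6 and SMAD7 at 0.37 and 0.55, and the other intervals include 0.

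In all, 5 of the 10 members had groups that did not overlap (ENG, NOG, BMP2, SMAD6 and SMAD7). The separation of ENG and NOG follows from their choice by this contrast. Of all tested genes, 45.5% had groups that did not overlap. The members' median difference, which includes ENG and NOG, was 0.07, and over all tested genes it was 0.004. Nothing is read from the members' count or median. Scaling the arrays anew (quantile normalization, median centring or cyclic loess) left the sign of each of the 10 differences as it was and kept the median of all genes between 0.0009 and 0.015.

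The pathway beyond these 10 genes was read from 9 lists of ligands, receptors, antagonists, SMADs, SMAD regulators, target genes and endoglin partners. They hold 127 further genes, of which 81 had a named probe set and 75 were tested. Of the 75, 0 rose, 3 fell and 72 did not pass limma's test over all genes. At an unadjusted p under 0.05 from limma, which 14.7% of all genes reached (6.24% higher and 8.48% lower), 3 of them were higher and 11 lower. The 3 called genes are 4% of the 75, beside 0.753% called over all genes, and the median difference was -0.05 against 0.004. The 3 falls were already known from an earlier analysis of these arrays when the lists were drawn up. Nothing is therefore read from their share.

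The 3 that fell lie at the edge of the pathway. FN1, the matrix protein fibronectin and a TGF-beta target, stood at 7.37 and 7.40 in control and at 6.09 and 5.68 in knockdown arrays, a 2.83-fold fall (adjusted p = 0.012 from limma). VEGFA, a mitogen of endothelial cells, stood at 6.76 and 6.85 in control and at 5.73 and 5.76 in knockdown arrays, a 2.08-fold fall (adjusted p = 0.018 from limma). GDF15, a stress-induced and distant member of the TGF-beta superfamily, stood at 5.85 and 5.58 in control and at 4.84 and 4.52 in knockdown arrays, a 2.04-fold fall. Its adjusted p of 0.049 from limma was close to the threshold, and the call was lost without a filter and after a further quantile normalization. With 1 array left out, the lists held 1 called gene without shYTHDF3 replicate 1, which was FN1, and 0 without each of the other arrays.

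**Figure D3:**
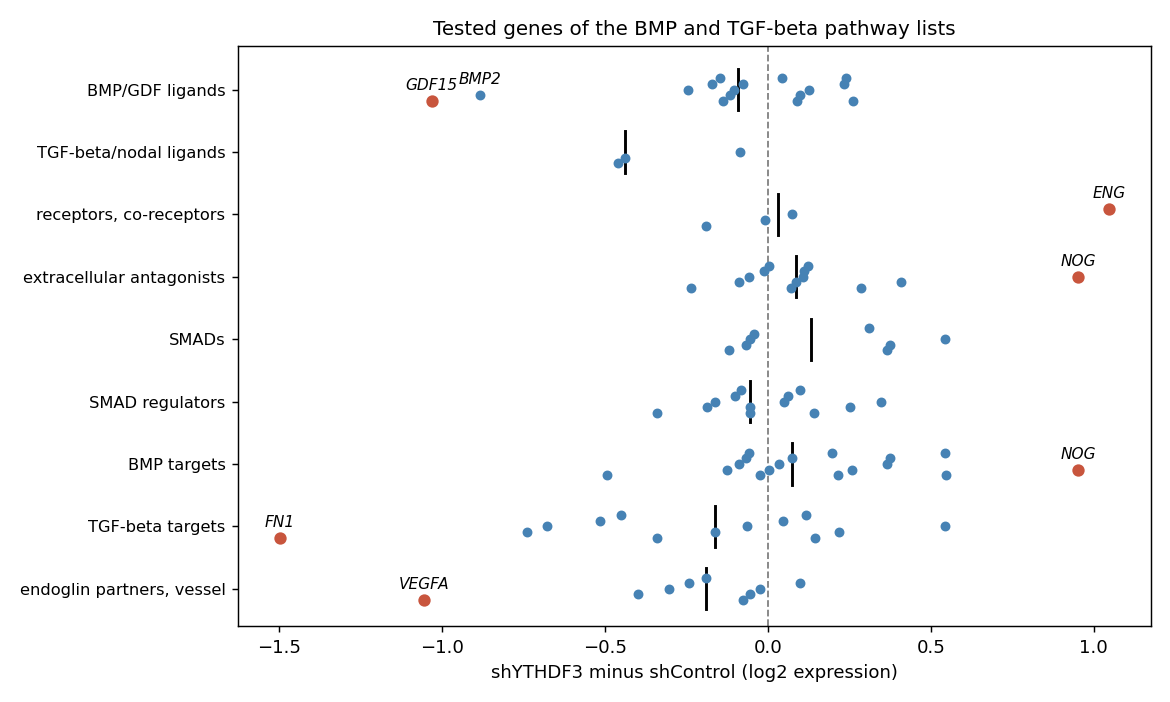
Difference between the shYTHDF3 and shControl means on the log2 scale (horizontal axis) for every tested gene of the 9 pathway lists, with the list median as a black line; red marks genes called over all genes, and a gene held by several lists appears in each. ENG and NOG are the only called genes on the right, and FN1, VEGFA and GDF15 are those on the left.

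Of 16 tested BMP and GDF ligands, 0 rose and 1 fell (GDF15), with a median difference of -0.09. GDF11 and BMP3 followed GDF15 and BMP2 in size at 0.26 and -0.24, and neither passed. The endoglin ligands GDF2 and BMP10 stood at 3.37 and 3.30, and at 2.55 and 2.78, in control arrays. In knockdown arrays they stood at 3.49 and 3.37, and at 2.63 and 2.55, differences of 0.10 and -0.08. Neither passed, the groups overlapped for BMP10 and just failed to for GDF2, and BMP10 lay near the filter value. Only 3 of 12 TGF-beta, activin and nodal ligands were tested, and none passed: LEFTY1 and LEFTY2, nodal inhibitors with similar sequences whose probe sets may share targets, at -0.46 and -0.44, and NODAL at -0.09. LEFTY1 was lower at an unadjusted p under 0.05 from limma, as 8.48% of all genes were. It had one and the same value, 2.74, in both knockdown arrays.

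Receptors were mostly not analysed here, since 4 of 19 listed had a named probe set. Besides ENG these were ACVRL1, the ALK1 partner of endoglin, at 2.92 and 2.89 in control and 2.46 and 2.96 in knockdown arrays, and BAMBI, a decoy receptor, at a difference of 0.07. The fourth, the iron-regulating BMP co-receptor HJV, differed by -0.01. None of these 3 passed, and ACVRL1 lay below the array medians in all arrays. MMP14, the membrane protease that sheds endoglin, differed by -0.02, and NRP1, a VEGF co-receptor, by -0.24. KLF6, a transcription factor that acts on the ENG promoter, differed by -0.40 and KDR, the main VEGF receptor, by -0.30. None of these 4 passed, and KLF6 was lower at an unadjusted p under 0.05 from limma, as 8.48% of all genes were. In the list of endoglin partners and vessel genes, VEGFA included, 8 of 9 tested differences were negative, with a median of -0.19. Over all 12755 genes 6280 were negative.

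Of 13 tested extracellular antagonists NOG, chosen from this contrast, was the 1 called, so the count restates that choice. None of the other 12 passed, and the median difference over the 13, NOG included, was 0.09. SOST, sclerostin, stood at 4.04 and 3.83 in control and at 4.33 and 4.36 in knockdown arrays, a difference of 0.41 (adjusted p = 0.23 from limma). It was higher at an unadjusted p under 0.05 from limma, as 6.24% of all genes were. BMPER and CRIM1, both BMP-binding proteins with cysteine-rich repeats, had differences of 0.29 and -0.23 and did not pass. FST, follistatin, which traps activins, differed by 0.11, CHRD, chordin, by 0.09 and TWSG1, its cofactor, by -0.09.

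None of the 8 SMADs passed, and 3 were higher at an unadjusted p under 0.05 from limma, against 6.24% of all genes. Besides SMAD6 and SMAD7 this was SMAD9, the third BMP-regulated SMAD, at 4.61 and 4.92 in control and 5.07 and 5.21 in knockdown arrays, a difference of 0.38 (adjusted p = 0.32 from limma). SMAD3 and SMAD2, which carry TGF-beta signals, differed by 0.31 and -0.12. In 5 of the 8 (62.5%) the groups did not overlap, against 45.5% of all genes. Of 13 SMAD regulators 0 passed and 1 was lower at an unadjusted p under 0.05, the corepressor TGIF1, at -0.34. The corepressor SKI stood at 0.35, the receptor-associated inhibitor STRAP at 0.25 and ZEB2 at -0.19.

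Among 17 tested BMP targets none passed apart from NOG, whose call chose it for this set. At an unadjusted p under 0.05 from limma 4 others were higher, SMAD6, SMAD7, SMAD9 and GATA2, where 6.24% of all genes were. SMAD6, SMAD7 and SMAD9 are the same genes already counted among the SMADs. GATA2, a haematopoietic and endothelial transcription factor, stood at 4.60 and 3.95 in control and at 4.74 and 4.90 in knockdown arrays, a difference of 0.55. The homeobox gene DLX3 was lower by the same measure, at -0.49. HEY1, MSX1 and MSX2, which BMPs induce in several tissues, differed by 0.26, 0.21 and 0.20 and did not pass. ATOH8, HEY2, SP7, HAMP and RUNX2 differed by -0.12, -0.09, -0.07, -0.06 and -0.02. Of the 17 differences, that of NOG included, 11 were positive and 6 negative, and the list median was 0.07. Over all tested genes 6474 differences were positive and 6280 negative, with a median of 0.004. Several of these targets had weak signal, with control means of 2.69 for ATOH8, 3.40 for RUNX2 and 3.43 for MSX2. Nothing is therefore read from the signs. HEY1 had a control mean of 2.53, below the filter value of 2.54, and entered the test only through its knockdown arrays. ID1, ID2, ID3 and ID4, the most direct BMP targets, had no named probe set and were not analysed here.

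TGF-beta targets had a negative median. Of 13 tested, 0 rose and 1 fell (FN1), and the median difference was -0.16 against 0.004 over all genes. At an unadjusted p under 0.05 from limma 1 was higher and 5 lower, where 6.24% of all genes were higher and 8.48% lower. LOX, which cross-links collagen, and LTBP1, which holds latent TGF-beta in the matrix, had differences of -0.74 and -0.68 (adjusted p = 0.071 and 0.12 from limma). CCN2, connective tissue growth factor, stood at -0.52 and the transcription factor SNAI1 at -0.45. The 1 higher was SMAD7, which this list shares with the BMP targets. A difference between the BMP and TGF-beta target lists was not tested.

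**Figure D4:**
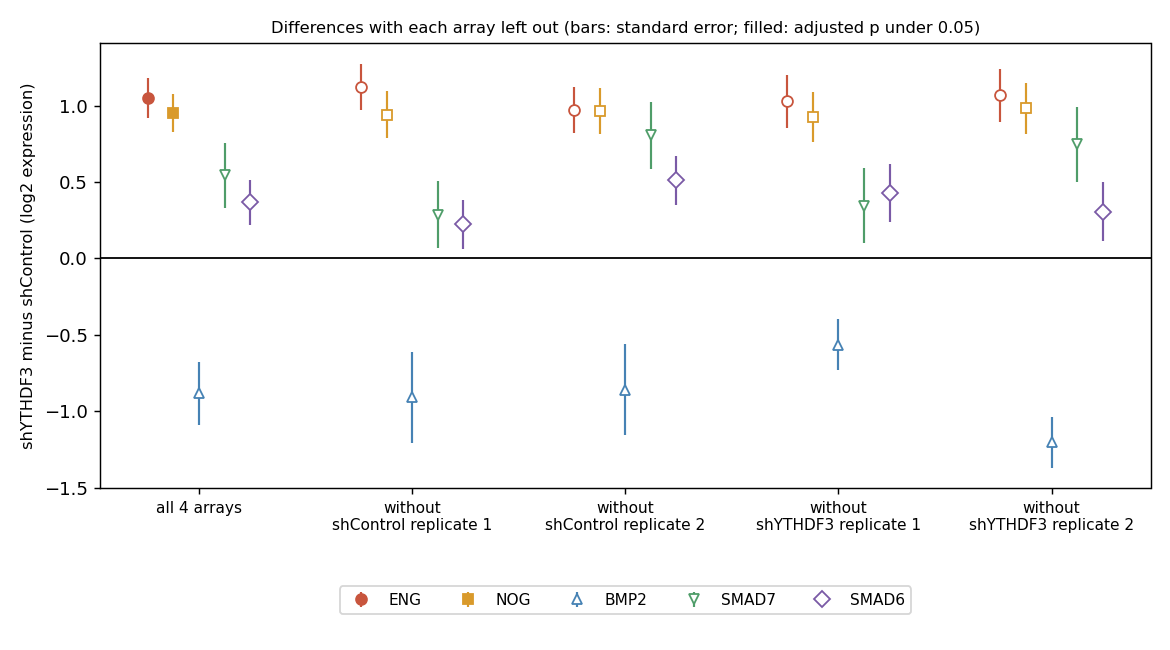
Difference between groups on the log2 scale (vertical axis, bars are limma's standard errors) for the 5 members whose groups did not overlap, with all 4 arrays and with each array left out; filled symbols have an adjusted p under 0.05. ENG stays between 0.97 and 1.12 and NOG between 0.92 and 0.98, while BMP2 runs from -1.20 to -0.56, SMAD7 from 0.28 to 0.81 and SMAD6 from 0.22 to 0.51.

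Since endoglin also marks endothelial and stromal cells, markers of other cell types were read beside it. Of 14 endothelial markers 8 were tested and 0 passed limma's test, with 1 (VWF, -0.34) lower at an unadjusted p under 0.05. Their summed linear signal, which includes 2 markers below the filter, ran from 407 to 416 in control and from 401 to 408 in knockdown arrays. Of the 10 endothelial markers with a probe set, 4 lay below the array medians in all 4 arrays and 4 above. Below were PECAM1, an endothelial adhesion molecule, at 2.29 to 2.90, VWF, EMCN and MMRN1. Above were ESAM, at 7.47 to 7.57, TIE1, at 6.93 to 7.14, KDR and CLDN5. Of 10 stromal and 9 leukocyte markers 2 and 3 were tested and 0 passed. The stromal sum, which includes 2 markers below the filter, was 31.3 to 31.9 in control and 29.1 to 30.8 in knockdown arrays. Of the 4 stromal markers in it, 3 lay below the array medians in all arrays. The leukocyte sum was 1627 to 1634 in control and 1373 to 1523 in knockdown arrays. The leukocyte sum was almost wholly CD68, which tumour cells also express. Of 12 luminal markers 9 were tested and 0 passed, with a summed signal of 607 to 723 in control and 782 to 792 in knockdown arrays. KRT18, a keratin of simple epithelia, held the largest part of the luminal sum. It was higher at an unadjusted p under 0.05 (0.50), and KRT19 differed by -0.40. Of 8 markers of the mesenchymal-like line 6 were tested and 1, FN1, fell. Their sums were 9050 to 9874 in control and 8527 to 8546 in knockdown arrays, carried mostly by MSN and AXL rather than FN1. MSN and AXL differed by -0.16 and -0.18 and did not pass, and VIM, CD44 and S100A4 differed by 0.05, 0.17 and 0.31. The stromal, leukocyte, luminal and mesenchymal-like sums did not overlap between groups, and their part in the differences of ENG and NOG was not tested. The hormone receptors ESR1 and PGR lay below the array medians in all arrays, and 6 other luminal markers lay above them, KRT18 at 8.26 to 8.98 and EPCAM at 6.63 to 6.77 among them. Of the 6 mesenchymal-like markers 5 lay above the medians in all arrays, VIM, AXL and MSN at 9.83 to 12.5, while S100A4 lay at 2.90 to 3.63.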

How the data were processed

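The authors deposited log2 expression for each probe set in each array. They used RMA, per the submitters' processing notes. Version, settings and genome build: not given in the sources used here. This method subtracts background, equalises arrays and compresses weak signals, so shifts in total RNA are removed. Of 53617 probe sets 16098 had 1 gene symbol, 0 several and 37519 none, and all 16098 gene identifiers matched RefSeq.

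A gene was read from the probe set of highest mean and tested where this was at or above percentile 30 of all rows (2.54). The 2-sided test was limma 3.58.1 (R 4.3.3; lmFit and eBayes without covariates). P-values were adjusted by Benjamini-Hochberg over 12755 genes, with a threshold of 0.05. The residual degrees of freedom were 2 and the prior 5.30. An exact permutation of 2 against 2 arrays cannot go below p = 0.333. The script was tested on simulated data. The number of arrays limits the precision.

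Members, lists, motifs and named genes (the 10 members, called list genes, the 4 largest differences per list, the 3 nearest profiles to ENG and NOG) were chosen with earlier results of these data known. Further genes were named for their roles after their values were seen. Promoters are from RefSeq (GRCh38.p14). Alternatives covered filter, probe set rule, features, normalization, variance model, replicate block, threshold and each array left out.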

Additional observations from a re-analysis of the deposited data

How the results depend on the processing

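Across 14 alternatives the sign of ENG, NOG, BMP2, BMP4, SMAD4 and SMAD7 was kept in all, and that of SMAD6 in the 13 that tested it. A change of filter, probe set rule, features, variance model, replicate block or threshold left each difference as it was. Only a new scaling or an array left out could therefore change a sign. ENG ran from 0.97 to 1.12 and NOG from 0.92 to 0.98, and each kept its call in 8 and lost it in 6. The 8 include the same fit at a threshold of 0.10. GREM1 and SMAD1 kept their sign in 12 and SMAD5 in 13. The replicate numbers are not stated to mark a shared batch, and same-numbered arrays deviated together with a correlation of 0.04. With the replicate block limma called 11 genes over all and 0 of the pathway lists, so neither ENG (1.05) nor NOG (0.95) was called. With every probe set as a feature 19 passed over all and 0 in the pathway lists, with ENG at 1.05 and NOG at 0.95; 14 pathway probe sets had an unadjusted p under 0.05. Against 96 genes in the comparison as reported, 167 were called with the filter at the median, 375 with an intensity trend and 250 at a threshold of 0.10. The pathway count of 5 was then 6, 7 and 6. With 1 array left out, 0 to 36 genes passed over all and 0 to 1 in the pathway lists, where 11 to 16 had an unadjusted p under 0.05. Where a group keeps 1 array, that array is assumed to vary like the other group. Detection calls were not used, so SMAD6, ACVRL1, BMP10 and HEY1 near the filter value have limited precision.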
